A study of Mus musculus with 24 samples.

Results

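*Tspan7* and 9 other tetraspanins (*Cd9*, *Cd63*, *Cd81*, *Cd82*, *Cd53*, *Cd37*, *Tspan3*, *Tspan4* and *Cd151*) were followed through ribosome-tagged spinal cord microglia of mice with and without the histone demethylase gene *Kdm6a*. These 10 genes, of 39017 identifiers in the deposited count table, were chosen by name, with *Tspan7* selected on its fall in the knockout of both sexes and the others as its relatives, to ask whether that fall was specific to *Tspan7*. All 10 were among the 16535 genes with enough counts to be tested. *Tspan7* is the only X-linked gene of the 10; *Cd81*, *Cd37*, *Tspan4* and *Cd151* lie on chromosome 7 and the other 5 on chromosomes 2, 3, 6, 9 and 10.

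The study crossed genotype with sex in mice with experimental autoimmune encephalomyelitis (EAE), an induced autoimmune disease of the central nervous system that serves as a model of multiple sclerosis. There were 6 libraries in each of 4 groups: female wildtype (F WT), female *Kdm6a* conditional knockout (F cKO), male wildtype (M WT) and male *Kdm6a* cKO (M cKO). All 24 libraries carry the EAE label, so no healthy animals stand beside them, and ages are not given. Per the design text the mice carried *Tmem119*-Cre, which is active in microglia, and RiboTag, a tagged ribosomal protein that is expressed after Cre recombination so that ribosome-bound RNA can be pulled down, in mice of both sexes; the labels themselves name only the genotype, and give the molecule as total RNA. Whether every library is 1 animal of its own is not stated, so p-values measure the spread among libraries, which may be technical. Levels are counts per 1000000 counts of a library (CPM), after scaling, and changes are log2 ratios with the standard error (SE) of the fit.

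Total counts ran from 27110133 to 40554736 per library. The microglial marker list was detected in full in every group, with a summed level of 6430 to 11000 CPM in F WT (median 8310), 9160 to 11900 in F cKO (median 10500), 6600 to 9070 in M WT (median 8770) and 8260 to 10800 in M cKO (median 9430). Some libraries stood apart. Counts of *Ddx3y*, a Y-linked gene, reached 18 in F WT replicate 2 and 40 in replicate 3, *Xist* reached 16 counts in M cKO replicate 3, and limma's voom gave F WT replicate 5 a weight of only 0.162. Results are therefore given with and without these 4 libraries where they moved. Replicates were numbered in accession order, and replicates 4 to 6 differed from 1 to 3 in several of the listed genes, so values within each set are also given where they moved. The targeted gene was lower in the cKO of both sexes. *Kdm6a* fell by 0.85 on the log2 scale in females (SE 0.25, adjusted p = 0.031 by edgeR's quasi-likelihood test) and by 1.36 in males (SE 0.26, adjusted p = 0.016), and its female call was lost without the 4 libraries (log2 change -0.81, adjusted p = 0.092). That call was also lost without any 1 of F cKO replicates 2, 3, 5 and 6 and F WT replicates 2 and 3, and the male call without M cKO replicate 2 or 6 or M WT replicate 2. Both calls were lost when the title number, which some samples of 1 genotype share, entered as a random effect (-0.79 and -1.46, adjusted p = 0.099 and 0.33). They were also lost in replicates 1 to 3 alone (-1.01 and -1.38, adjusted p = 0.091 and 0.16) and in replicates 4 to 6 alone (-0.62 and -1.35, adjusted p = 0.37 and 1.0), and the female call in a fit of the female groups alone (adjusted p = 0.067).

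Tetraspanins are small membrane proteins that cross the membrane 4 times and assemble with each other, with integrins, with immunoglobulin-family proteins and with membrane proteases into tetraspanin-enriched microdomains. They control where their partners sit on the surface and which are taken into endosomes and shed vesicles. *Tspan7*, an X-linked gene, is known from neurons, where the protein binds the scaffold protein PICK1 and affects the trafficking of glutamate receptors, and from inherited intellectual disability in humans. *Cd9*, *Cd63* and *Cd81* are the usual protein markers of extracellular vesicles, and *Cd53* and *Cd37* are largely restricted to leukocytes.

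The start sites of *Tspan7* and of *Tspan5* and *Tspan32*, the further tetraspanins that separated the genotypes in females, are shown because *Kdm6a* acts on chromatin at genes. Each window is the 300 bases from 250 before to 50 after the annotated start, from RefSeq on GRCm38.p6, with every CG in capitals. Windows were found for 29 of the 31 tetraspanin genes named or listed. *Tspan7* lies at chrX:10484866-10485165 on the plus strand, *Tspan5* at chr3:138741958-138742257 on the plus strand and *Tspan32* at chr7:143004796-143005095 on the plus strand.
Tspan7: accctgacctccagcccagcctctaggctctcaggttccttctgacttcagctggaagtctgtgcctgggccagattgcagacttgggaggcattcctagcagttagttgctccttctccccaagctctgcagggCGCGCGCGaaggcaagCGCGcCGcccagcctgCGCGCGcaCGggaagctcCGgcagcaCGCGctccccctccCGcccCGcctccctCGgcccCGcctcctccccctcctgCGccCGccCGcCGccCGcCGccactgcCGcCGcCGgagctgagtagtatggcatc
Tspan5: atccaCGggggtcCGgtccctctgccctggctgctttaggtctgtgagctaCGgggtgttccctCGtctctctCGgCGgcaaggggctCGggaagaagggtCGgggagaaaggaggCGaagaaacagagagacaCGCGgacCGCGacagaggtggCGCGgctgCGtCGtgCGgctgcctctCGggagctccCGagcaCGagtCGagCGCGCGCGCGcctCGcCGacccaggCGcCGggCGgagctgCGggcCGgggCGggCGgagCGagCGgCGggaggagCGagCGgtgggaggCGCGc
Tspan32: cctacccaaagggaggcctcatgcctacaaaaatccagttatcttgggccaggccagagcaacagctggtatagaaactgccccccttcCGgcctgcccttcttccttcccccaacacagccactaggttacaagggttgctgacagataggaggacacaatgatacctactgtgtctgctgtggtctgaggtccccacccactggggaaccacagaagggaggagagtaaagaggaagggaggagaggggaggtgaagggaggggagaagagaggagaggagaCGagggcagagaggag
The window of *Tspan7*, which was lower in cKO, held 27 CG, and 15.5% of the 32851 windows of all genes held as many or more. That of *Tspan5*, which was higher in F cKO, held 43 (2.61% of windows). That of *Tspan32*, which was lower in F cKO, held 2 (85.9% of windows). The median of all windows was 7, so a fall occurred at a window rich in CG and at one poor in it. Neither GAGGAAGT, an element bound by the myeloid factor PU.1, nor TATAAA, the core promoter element, was found on either strand in these 3 windows. They occur in 3.2% and 13.6% of all windows, and no factor binding is read from their absence here.

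*Tspan7* (protein coding, chromosome X, 10485158 to 10596605, plus strand, mm10) was the listed tetraspanin with a level that separated the genotypes. In F WT its lowest, median and highest levels were 276, 328 and 402 CPM, and in F cKO 82.5, 90.0 and 98.5 CPM. In M WT they were 308, 344 and 385 CPM, and in M cKO 161, 180 and 203 CPM. Every cKO library lay below every wildtype library of its sex, and the F cKO libraries also lay below all M cKO libraries, while the wildtype groups of the 2 sexes lay over each other. Mean levels were 338 ± 49.1 CPM in F WT, 89.5 ± 5.63 in F cKO, 344 ± 32.9 in M WT and 181 ± 14.3 in M cKO (SD, n = 6 each).

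F cKO libraries thus held 26.5% of the female wildtype level and M cKO libraries 52.8% of the male one. The log2 change was -1.92 (SE 0.10) in females and -0.92 (SE 0.10) in males. These contrasts chose *Tspan7*, so they are given as a description with no test. The smallest count of *Tspan7* in a library was 2584, so that counting error is small beside the spread between libraries, which was 0.14 on the log2 scale within groups. In the tissue as pulled down, fewer cells that express a gene and less RNA per cell cannot be told apart.

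**Figure D1:**
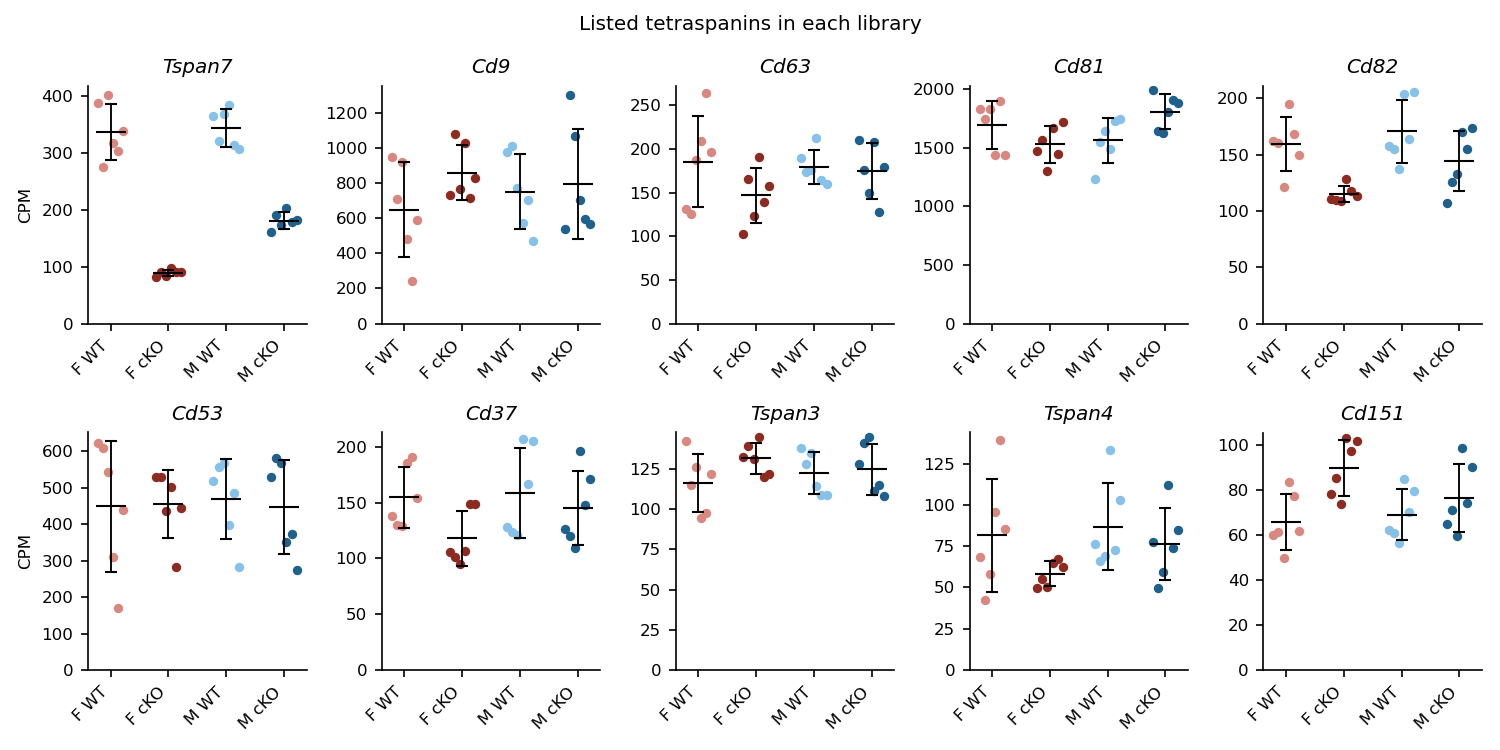
Level of each listed tetraspanin in CPM (vertical axis, linear from 0) in the 24 libraries (points), with the mean and SD of each group of 6 (bars). *Tspan7* separates cKO from wildtype in both sexes, with 82.5 to 98.5 CPM in F cKO and 161 to 203 CPM in M cKO, whereas for the other 9 genes the genotypes overlap in each sex.

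*Tspan7* was placed on the list for its fall in both sexes. The differences between the sexes rest on the same libraries, and that in the genotype effect on the same contrasts. The p-values below are therefore not independent of that choice. In wildtype, females and males differed by -0.03 on the log2 scale (female over male, SE 0.10, adjusted p = 1.0). In cKO, females were lower than males by a log2 change of -1.02 (SE 0.10, adjusted p = 3.2e-07). The genotype effect itself differed between the sexes by -0.99 (SE 0.14, adjusted p = 0.00033; edgeR's quasi-likelihood test, p adjusted by Benjamini-Hochberg over all genes). Without the 4 libraries that stood apart this difference was -1.05. In replicates 1 to 3 alone it was -1.05 (adjusted p = 0.071) and in replicates 4 to 6 alone -0.92 (adjusted p = 0.22), with 3 libraries a group.

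The level of *Kdm6a* RNA that remained did not order *Tspan7* across the groups. Mean *Kdm6a* levels were 2.79 ± 0.705 CPM in M WT and 2.50 ± 0.671 in F cKO, with *Tspan7* at 344 and 89.5 CPM in those groups. Mean *Kdm6a* levels in F WT and M cKO were 4.51 ± 1.37 and 1.08 ± 0.382 CPM (SD, n = 6 each). M cKO, the group lowest in *Kdm6a*, held more *Tspan7* than F cKO. Which exons were deleted is not stated in the labels, and counts per gene keep reads from the rest of the *Kdm6a* transcript.

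**Figure D2:**
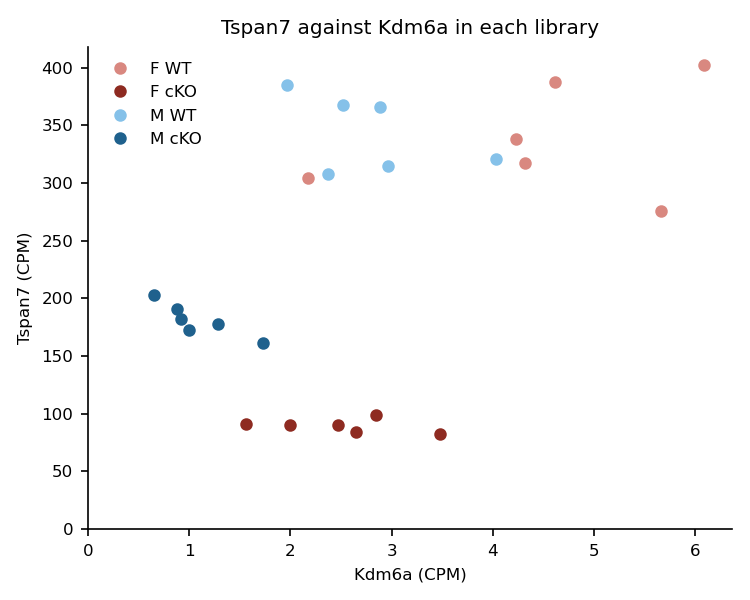
*Tspan7* (vertical axis, CPM) against *Kdm6a* (horizontal axis, CPM) in each of the 24 libraries, coloured by group. F cKO and M WT libraries overlap along the *Kdm6a* axis, at 1.56 to 3.48 and 1.97 to 4.03 CPM, and lie apart along the *Tspan7* axis.

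The 9 other listed tetraspanins moved far less between the genotypes. In females their log2 changes ran from -0.48 (*Tspan4*) to 0.45 (*Cd151*), with a median of -0.15, against -1.92 for *Tspan7*. In males they ran from -0.24 (*Cd82*) to 0.21 (*Cd81*), with a median of -0.04, against -0.92. The median change of all genes tested was -0.018 in females and 0.008 in males. In both sexes the cKO and wildtype libraries of all 9 genes overlapped, for *Cd82* in females through F WT replicate 3 alone. By the same fit, 3 of the 10 genes passed an adjusted p under 0.05 in females (*Tspan7*, *Cd82* and *Cd151*), where 7.74% of all genes tested did, and 1 of 10 (*Tspan7*) in males, where 0.187% did. For 1 of the 10 the groups did not overlap in females, where this held for 4.46% of genes, and for 1 of 10 in males, where it held for 0.575%. Since these contrasts were used to choose the genes, nothing is read from the counts.

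Among the vesicle markers, *Cd9*, which binds immunoglobulin-family partners and integrins and is known to rise in disease-associated microglia, had lowest, median and highest levels of 243, 650 and 948 CPM in F WT and 717, 797 and 1080 CPM in F cKO. In males they were 473, 739 and 1010 CPM in M WT and 538, 649 and 1300 CPM in M cKO. The groups overlapped widely, with log2 changes of 0.41 (SE 0.26) in females and 0.08 (SE 0.26) in males. The female value was 0.00 in replicates 1 to 3 alone and 0.99 in replicates 4 to 6 alone.

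*Cd81*, which in humans is a receptor for hepatitis C virus, was the most abundant of the 10 per length in every group. Its mean level was 1700 ± 206 CPM in F WT and 1530 ± 156 in F cKO, and 1570 ± 193 in M WT and 1810 ± 146 in M cKO (SD, n = 6 each), with overlap in both sexes. The changes had opposite signs, at -0.15 (SE 0.10) in females and 0.21 (SE 0.10) in males, and the difference between them was -0.36 (SE 0.15, adjusted p = 0.54 by edgeR's quasi-likelihood test). The female sign did not hold, at -0.32 in replicates 1 to 3 alone, 0.02 in replicates 4 to 6 alone and -0.04 without the 4 libraries that stood apart.

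*Cd63*, which resides in late endosomes and lysosomes, ran from 125 through a median of 192 to 264 CPM in F WT and from 103 through 148 to 191 CPM in F cKO. In males it ran from 160 through 175 to 212 CPM in M WT and from 128 through 177 to 210 CPM in M cKO. The log2 changes were -0.34 (SE 0.17) and -0.04 (SE 0.17), and the groups overlapped in both sexes. The female change was -0.18 in replicates 1 to 3 alone and -0.45 in replicates 4 to 6 alone.

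Among the leukocyte tetraspanins, *Cd53* had nearly equal means of 449 ± 180 CPM in F WT and 453 ± 93.0 in F cKO, and of 467 ± 109 in M WT and 446 ± 130 in M cKO (SD, n = 6 each). Its log2 change was 0.02 (SE 0.25) in females and -0.07 (SE 0.25) in males, the widest error among the listed genes after that of *Cd9*, so a moderate change was not detectable. In females it was -0.25 in replicates 1 to 3 alone and 0.43 in replicates 4 to 6 alone. *Cd37*, which binds the beta-glucan receptor *Clec7a*, had levels of 129, 146 and 191 CPM in F WT and 95.2, 106 and 149 CPM in F cKO, a log2 change of -0.39 (SE 0.17). In males the levels were 121, 147 and 207 CPM in M WT and 109, 137 and 196 CPM in M cKO, a change of -0.13 (SE 0.17).

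*Cd82*, first described as a metastasis suppressor in human tumours, was the listed gene with the highest correlation with *Tspan7* over all libraries. Its levels were 121, 161 and 195 CPM in F WT and 109, 112 and 128 CPM in F cKO. In M WT they were 137, 161 and 206 CPM and in M cKO 107, 144 and 174 CPM. Only F WT replicate 3, at 121 CPM, fell within the narrow band of the F cKO libraries. The next F WT library stood at 150 CPM, and replicate 3 is 1 of the 4 libraries that stood apart. The log2 change was -0.47 (SE 0.13) in females and -0.24 (SE 0.13) in males. Without those 4 libraries the female change was -0.56. In females *Cd82* kept its place past the threshold in 33 of 37 alternative settings and lost it without F WT replicate 4 and in 3 others. These settings refit the same libraries and the contrast was known when the genes were chosen, so the count is a description.

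*Cd151*, a partner of laminin-binding integrins, and *Tspan4*, which is enriched in the retraction-fibre organelles called migrasomes, are neighbours on chromosome 7, with starts at 141467392 and 141475240 on the same strand. *Cd151* ran from 49.7 through 61.7 to 83.7 CPM in F WT and from 73.7 through 91.4 to 103 CPM in F cKO. *Tspan4* ran from 42.4 through 76.9 to 139 CPM in F WT and from 49.7 through 58.9 to 67.0 CPM in F cKO. The fitted changes had opposite signs in females, at 0.45 (SE 0.14) for *Cd151* and -0.48 (SE 0.23) for *Tspan4*, with overlap for both. In replicates 1 to 3 and 4 to 6 alone the female change of *Tspan4* was -0.12 and -0.71. In males the changes were 0.15 (SE 0.14) for *Cd151* and -0.18 (SE 0.22) for *Tspan4*. *Cd151* passed the threshold in females in only 13 of 37 alternative settings, and its change without the 4 libraries that stood apart was 0.39. *Tspan3* had levels of 94.7, 118 and 142 CPM in F WT and 120, 131 and 145 CPM in F cKO, with log2 changes of 0.18 (SE 0.11) in females (0.07 in replicates 1 to 3 and 0.31 in replicates 4 to 6) and 0.03 (SE 0.11) in males.

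The summed level of the 9 other genes was 3560 ± 424 CPM in F WT and 3500 ± 370 in F cKO, and 3570 ± 176 in M WT and 3790 ± 248 in M cKO (SD, n = 6 each), with overlap in each sex. *Tspan7* made up 8.68% ± 0.925 of the sum of all 10 in F WT and 2.5% ± 0.183 in F cKO. It made up 8.8% ± 0.946 in M WT and 4.58% ± 0.408 in M cKO. This share mostly tracks the fall that chose *Tspan7* and is a description.

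Levels were also divided by the summed length of all annotated exons of a gene, whichever transcripts were expressed, so the order between genes is approximate. In F WT, *Cd81* stood first at 591 CPM per kb, followed by *Cd9* at 317, *Cd53* at 258, *Cd82* at 53.0, *Cd63* at 50.4, *Tspan7* at 47.8, *Cd37* at 43.9, *Tspan4* at 37.4, *Tspan3* at 27.2 and *Cd151* at 24 CPM per kb. Of the neighbours in this order, *Cd81* and *Cd9* did not overlap over the 6 libraries, nor did *Cd53* and *Cd82*, and all the other neighbouring pairs overlapped. *Tspan7* was 6th of the 10 per length in the wildtype of both sexes and 10th in the cKO of both, at 12.7 CPM per kb in F cKO and 25.7 in M cKO.

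Between the sexes, none of the 10 genes passed in wildtype by edgeR's quasi-likelihood test or by DESeq2. By edgeR 0.0363% of all genes tested were called there, and the groups did not overlap for 0.0907%. At an unadjusted p under 0.05 there were 0 of the 10, against 520 of all 16535 genes tested. The log2 differences, female over male, ran from -0.21 (*Cd9*) to 0.12 (*Cd81*). In cKO, 1 of 10 passed (*Tspan7*), against 1.98% of all genes, and the groups of 1 of 10 did not overlap, against 2.5% of all genes. In the difference between the sexes in the genotype effect, again 1 of 10 passed (*Tspan7*), against 0.411% of all genes. Of the other 9, none passed in these contrasts by edgeR or DESeq2. At an unadjusted p under 0.05 there were 2 in the cKO contrast and 1 in the difference of effects. Of all 16535 genes tested, 1716 and 1175 had such a p in these contrasts.

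**Figure D3:**
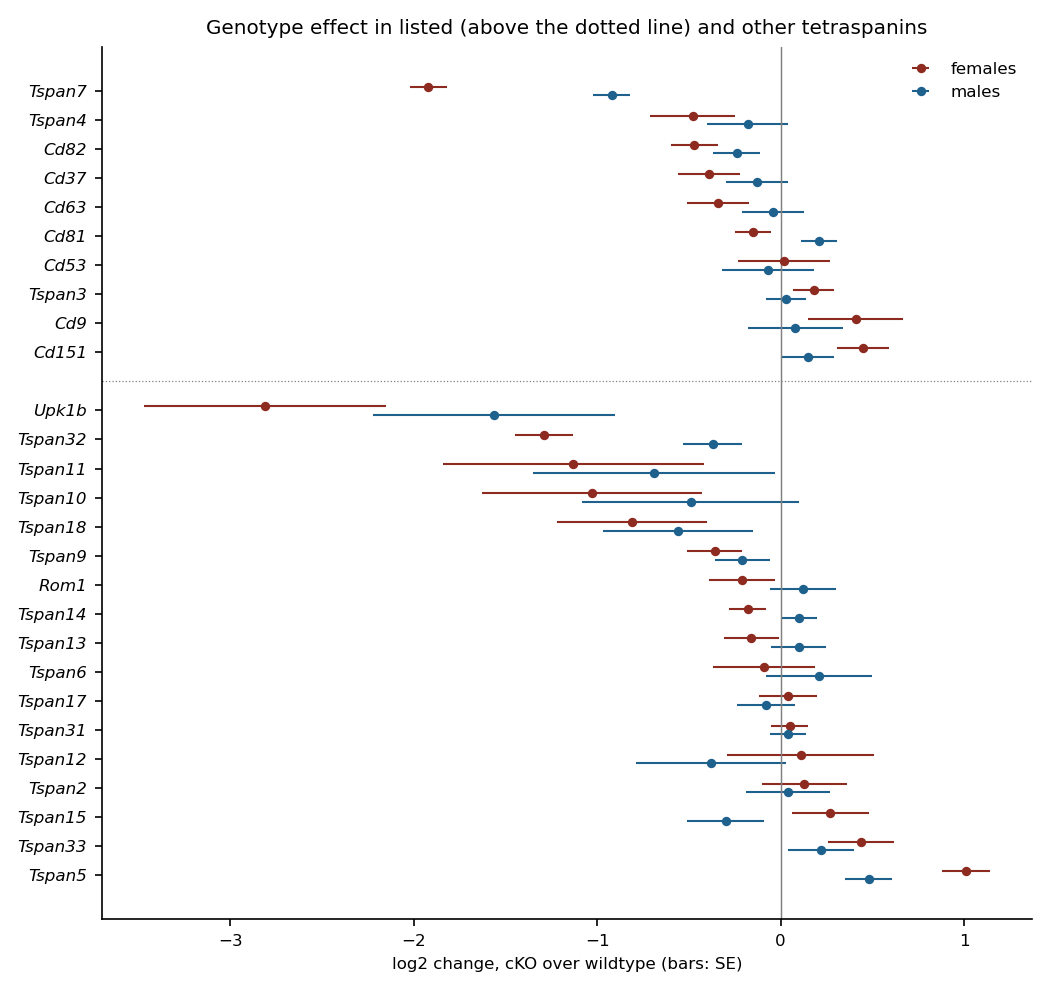
Log2 change of cKO over wildtype (horizontal axis, bars are SE) for the 10 listed tetraspanins above the dotted line and the 17 other tetraspanins tested below it, in females (red) and males (blue). *Tspan7* stands at -1.92 and -0.92, and the other 9 listed genes lie between -0.48 and 0.45. Below the line *Tspan5*, *Tspan32* and *Upk1b* passed in females, while *Tspan11* (-1.13, SE 0.71) and *Tspan10* (-1.03, SE 0.6) did not.

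Of 21 further tetraspanin genes, 17 could be tested. In females 1 rose and 2 fell (17.6% of those tested, against 7.74% of all genes), and the median change was -0.16. The list was written with earlier results of these data known, so the share is a description. Of the falls, that of *Tspan32* passed without the 4 libraries that stood apart and that of *Upk1b* did not. In males 0 passed by edgeR's quasi-likelihood test, with 3 at an unadjusted p under 0.05 and 0 by DESeq2, and the median was -0.08. An unadjusted p under 0.05 was found in males for 803 of all 16535 genes tested. *Tspan6*, the other X-linked gene of this list (named after its values were seen), changed by -0.09 in females (SE 0.28, adjusted p = 0.91) and 0.21 in males (SE 0.29, adjusted p = 1.0) at a level near 1 CPM.

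*Tspan5*, one of the TspanC8 tetraspanins that bind the protease ADAM10 and steer its maturation, rose in females. Its levels were 29.9, 36.9 and 43.7 CPM in F WT and 62.5, 72.8 and 90.4 CPM in F cKO. In M WT they were 30.6, 38.4 and 48.4 CPM and in M cKO 42.4, 56.0 and 64.0 CPM. All F cKO libraries lay above all F WT libraries, and the male groups overlapped. The log2 change was 1.01 in females (SE 0.13, adjusted p = 5.7e-06) and 0.48 in males (SE 0.13, adjusted p = 0.18), and the difference between them was 0.53 (SE 0.18, adjusted p = 0.38). The female value was 1.01 in replicates 1 to 3 alone, 1.03 in replicates 4 to 6 alone and 0.83 without the 4 libraries that stood apart.

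*Tspan32*, a tetraspanin of blood cells, fell in females, from lowest, median and highest levels of 23.8, 26.9 and 45.1 CPM in F WT to 10.7, 12.5 and 16.0 CPM in F cKO. In M WT the levels were 22, 27.1 and 33.9 CPM and in M cKO 16.8, 22.6 and 25.6 CPM. The groups did not overlap in females and did in males. The log2 change was -1.29 in females (SE 0.16, adjusted p = 3.9e-06) and -0.37 in males (SE 0.16, adjusted p = 0.89). The female change was -1 without the 4 libraries that stood apart. In cKO, females were lower than males by a log2 difference of -0.75 (SE 0.16, adjusted p = 0.0096), while the difference between the 2 genotype effects was -0.93 (SE 0.23, adjusted p = 0.074 by edgeR and 0.018 by DESeq2, and -0.60 without the 4 libraries that stood apart). *Tspan32* starts at 143005046 on chromosome 7, beside *Cd81* at 143052739, whose change in females was -0.15. An antisense gene overlaps 271 bases of its exons, and whether the counting used strand is not stated.

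*Upk1b*, a tetraspanin of the bladder lining, fell in females by 2.81 on the log2 scale (SE 0.66, adjusted p = 0.0065) at a low level of 0.481 to 4.43 CPM in F WT and 0 to 0.639 CPM in F cKO. The ranges overlapped, and the change was -1.84 (adjusted p = 0.15) without the 4 libraries that stood apart.

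**Figure D4:**
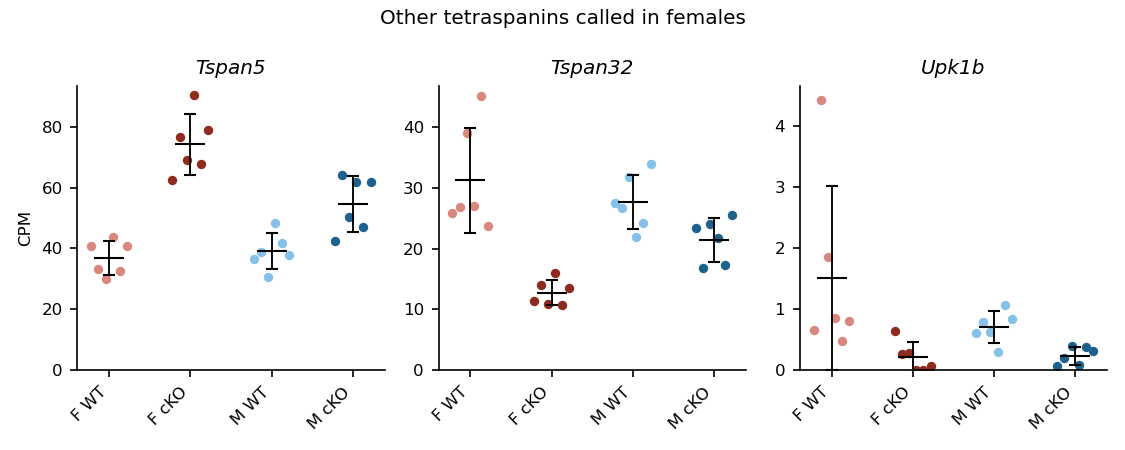
Level in CPM (vertical axes, linear from 0) of the 3 further tetraspanins that passed in females, in each library (points), with the mean and SD of each group of 6 (bars). *Tspan5* is higher and *Tspan32* lower in all F cKO libraries than in all F WT libraries, and the high mean of *Upk1b* in F WT rests on 1 library at 4.43 CPM.

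The binding partners of tetraspanins were counted next. Of 28 listed, 26 were tested. In females 3 rose and 1 fell (15.4%, against 7.74% of all genes), and the median change was 0.07. In males 0 passed by edgeR's quasi-likelihood test, 3 had an unadjusted p under 0.05 (803 of all 16535 genes did) and DESeq2 called 1 (*Vcam1*). *Vcam1*, an adhesion ligand for leukocyte integrins, fell from 54.1 CPM in F WT to 20.8 in F cKO (log2 change -1.38, SE 0.17, adjusted p = 3.9e-06), with no overlap between the groups, and changed by -0.66 in males (SE 0.17, adjusted p = 0.15). *Itgb2*, the shared beta chain of the leukocyte integrins, rose from 652 to 1030 CPM in females (log2 change 0.66, SE 0.11, adjusted p = 0.00012). In M WT and M cKO it stood at 654 and 832 CPM, with no overlap and a log2 change of 0.35 that did not pass (SE 0.11, adjusted p = 0.33). *Clec7a*, the partner of *Cd37*, rose by 0.55 (SE 0.15, adjusted p = 0.024) and *Cd44*, the hyaluronan receptor, by 0.47 (SE 0.14, adjusted p = 0.038), both with overlapping groups. In males *Clec7a* changed by -0.05 (SE 0.15) and *Cd44* by -0.12 (SE 0.14), each with an adjusted p of 1.0. Without the 4 libraries that stood apart the list held 2 calls in females, those of *Vcam1* and *Itgb2*, and *Clec7a* changed by 0.45 and *Cd44* by 0.39. *Clec7a* also lost its call without F cKO replicate 3 or 4 or F WT replicate 5, and *Cd44* without any 1 of 8 female libraries. The list likewise held 2 calls when the title number entered as a random effect, with voom quality weights, with the infiltrating cell covariate and in either set of replicates alone, and in each of these *Clec7a* and *Cd44* did not pass (adjusted p = 0.079 and 0.11 with title number).

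All 23 listed genes of extracellular vesicles and multivesicular bodies were tested. In females 0 rose and 2 fell (8.7%, against 7.74% of all genes), and the median change was -0.08. In males 0 passed by edgeR's quasi-likelihood test or by DESeq2, and 0 had an unadjusted p under 0.05, against 803 of all 16535 genes. *Rab27a*, the small GTPase that docks vesicle-bearing endosomes at the plasma membrane, fell from 92.2 CPM in F WT to 39.2 in F cKO with no overlap (log2 change -1.23, SE 0.15, adjusted p = 2.0e-06). In M WT and M cKO it stood at 84.2 and 73.1 CPM (log2 change -0.20, SE 0.14, adjusted p = 1.0), and the 2 effects differed by -1.03 (SE 0.21, adjusted p = 0.015). Without the 4 libraries that stood apart the female change was -1.04 and that difference -0.81 (adjusted p = 0.18). The difference was -1.06 (adjusted p = 0.11) in replicates 1 to 3 alone and -0.98 (adjusted p = 0.49) in replicates 4 to 6 alone. *Sdc4*, a syndecan that takes part in vesicle loading, fell by 0.53 in females (SE 0.12, adjusted p = 0.0041) and changed by -0.15 in males (SE 0.12, adjusted p = 1.0). Its female call was lost in either set of replicates alone. The change was -0.43 (adjusted p = 0.11) in replicates 1 to 3 and -0.6 (adjusted p = 0.072) in replicates 4 to 6.

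*Tspan7* and *Kdm6a* lie on the same chromosome, with the start of *Tspan7* at -7.68 Mb from that of *Kdm6a*. Among the 57 other genes tested that start within 10 Mb of *Kdm6a*, 8 rose and 1 fell in females (15.8%, against 7.74% of all genes), and the median change was 0.12. In males 0 passed by edgeR or DESeq2 and 2 had an unadjusted p under 0.05 (803 of all 16535 genes did), and the median was 0.06. The genes with the smallest p were *Maoa* and *Maob*, the monoamine oxidase pair, which rose by 1.01 and 1.15 in females (SE 0.21 and 0.24, adjusted p = 0.0023 and 0.0026), and the scaffold kinase gene *Cask*, which rose by 1.01 (SE 0.22, adjusted p = 0.0027). *Klhl13*, a ubiquitin ligase adaptor, rose by 1.07 (SE 0.30, adjusted p = 0.024). *Cfp*, the complement regulator properdin, fell by 2.37 (SE 0.58, adjusted p = 0.0093) and was the only gene of the 57 that passed with a fall in females. The count in females was 4 without the 4 libraries that stood apart, where *Cfp* changed by -1.53 (adjusted p = 0.21), and 5 without F cKO replicate 1 or 3. It was also 4 with the random effect of title number, 3 with the infiltrating cell covariate, 2 in replicates 1 to 3 alone and 4 in replicates 4 to 6 alone. With the infiltrating cell covariate *Cfp* changed by -1.35 (adjusted p = 0.32) and *Klhl13* by 1.0 (adjusted p = 0.13).

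**Figure D5:**
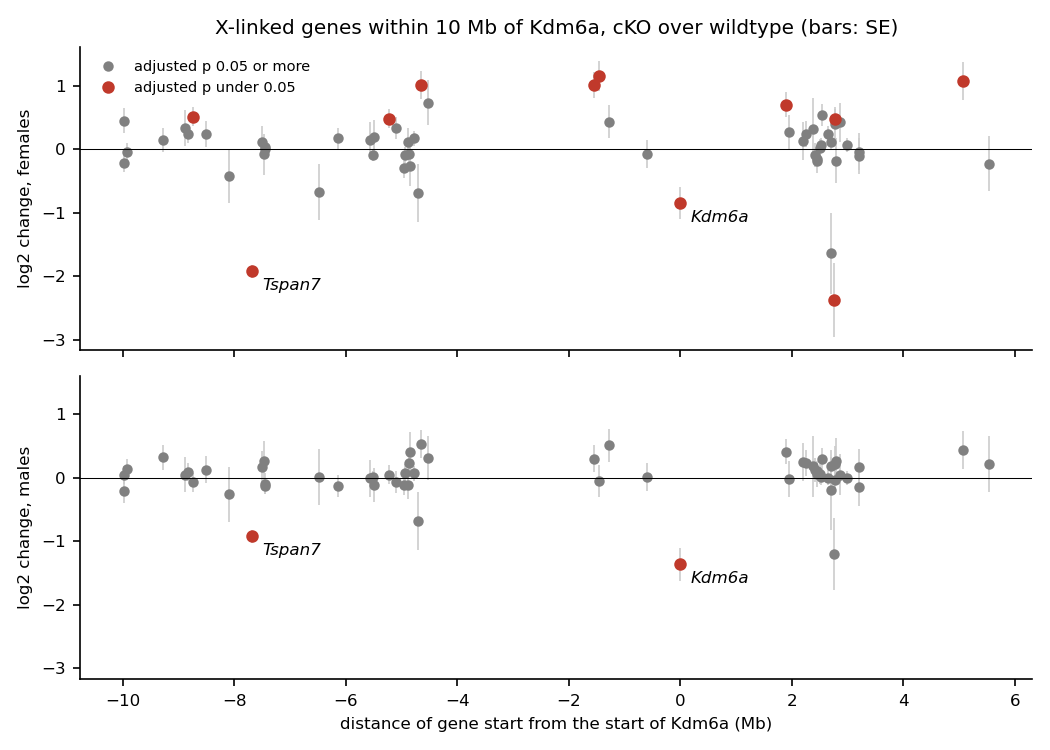
Log2 change of cKO over wildtype (vertical axes, bars are SE) for genes tested on chromosome X, by the distance of their start from the start of *Kdm6a* in Mb (horizontal axis), in females (top) and males (bottom), with red for an adjusted p under 0.05. Most genes around *Tspan7*, at -7.68 Mb, lie near 0.

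Over the 24 libraries the genes whose log2 CPM followed *Tspan7* most closely were *Tmem154* (Pearson r = 0.97), the urate transporter gene *Slc2a9* (0.95), *Ctla2b* (0.95), the lipase gene *Liph* (0.95) and *Itgal*, the alpha chain of a leukocyte integrin (0.94). These values hold the genotype difference and are descriptions. Once each group's mean was subtracted, the closest were *Cd5l*, a secreted macrophage protein (0.88), *Ctla2b* (0.87), *Kdelr1* (0.85), *Cln8* (0.81) and the lysosomal membrane gene *Lamp1* (0.79). *Ctla2b* stood in both lists. The libraries also share depth and composition in these values. Of the 9 other tetraspanins, *Cd82* had r = 0.71 with *Tspan7* over all libraries and -0.03 with group means subtracted, and within groups the 9 ran from -0.05 (*Cd81*) to 0.44 (*Cd9*).

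Markers of other cells were read in the same libraries. The neuron list summed to 258 to 549 CPM in F WT and 254 to 591 CPM in F cKO, and to 260 to 381 CPM in M WT and 280 to 408 CPM in M cKO. *Snap25*, a defining neuronal gene, stood at 24.8 and 29.5 CPM in F WT and F cKO. The astrocyte and oligodendrocyte lists overlapped between the genotypes as well, and none of the 27 genes of the 3 lists passed in either sex by edgeR's quasi-likelihood test (0 at an unadjusted p under 0.05 in females and 1 in males). Among all 16535 genes tested, 3174 in females and 803 in males had such an unadjusted p. With a covariate for these 3 lists the change of *Tspan7* was -1.91 in females and -0.92 in males.

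The endothelial list was higher in F cKO, at 105 to 166 CPM against 48.2 to 101 CPM in F WT. Most of that sum was *Flt1* (55.6 and 132 CPM in F WT and F cKO), whereas *Cldn5*, the defining tight junction gene, stood at 3.34 and 2.26 CPM. The monocyte list summed to 181 to 566 CPM in F WT and 500 to 922 CPM in F cKO, mostly through *Fn1* (319 and 722 CPM), whereas its defining genes *Ccr2* and *Ly6c2* stood at 1.02 and 0.42 CPM and at 0.545 and 0.0219 CPM. In females 1 of 8 endothelial genes tested rose and 1 fell, and 2 of 8 monocyte genes rose and 2 fell, where 7.74% of all genes passed. In M WT and M cKO the endothelial sums were 65.5 to 85.9 and 57.9 to 137 CPM, and the monocyte sums 177 to 368 and 318 to 1030 CPM. The B cell and dendritic cell lists were carried by 1 gene each, *Ighm* (200 and 310 CPM in F WT and F cKO) and *Siglech* (109 and 233 CPM), a gene that microglia also express, with *Ms4a1* and *Cd209a* at or below 0.0508 CPM in both groups. With a covariate for infiltrating cells the change of *Tspan7* was -1.90 in females and -0.92 in males. *Tmem119*, the gene whose promoter drives the Cre, changed by -0.77 in females (SE 0.15, adjusted p = 0.00091) and by 0.01 in males (SE 0.15, adjusted p = 1.0). It was the only gene of the 10 in the microglial list that passed with a fall in females, where *Siglech* rose by 1.09 (SE 0.26, adjusted p = 0.0067) and the median change of the list was 0.42. At an unadjusted p under 0.05, 6 of the 10 were higher and 1 was lower in F cKO, against 3174 of all 16535 genes in either direction. The summed levels of the groups overlapped. In males 0 of the 10 passed by edgeR's quasi-likelihood test, with 1 at an unadjusted p under 0.05 (803 of all genes tested), and the median was 0.21. The part of these markers in the results was not tested.

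Between replicates 4 to 6 and 1 to 3, over all groups, *Tspan7* differed by 0.00 on the log2 scale. The other listed genes differed by -0.62 (*Cd53*) to 0.58 (*Tspan4*), with *Cd9* at -0.57, *Cd37* at 0.50, *Cd151* at 0.39 and *Cd82* at 0.28. The split follows accession order, the labels name no batch, and its source was not tested. It partly goes with title number: replicates 1 to 3 of both cKO groups share a title number, and those of M WT share another. Each title number occurs in only 1 genotype, so title number and genotype cannot be fully told apart. Within the sets the change of *Tspan7* in females was -2.05 and -1.77, and in males -1.0 and -0.85.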

How the data were processed

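RNA from spinal cord microglia was sequenced in 24 libraries. A Direct-zol kit for RNA and a stranded KAPA kit with mRNA enrichment were used, per the labels' protocols. Per the submitters' processing notes, reads were handled with bcl2fastq 2.17, FastQC and Trimmomatic, on mm10; the aligner, counter and strand setting are not given in the sources used. Raw counts per Ensembl gene, 1 column per library, were deposited by the authors. Of these identifiers 96.6% matched the GENCODE annotation of that build, which gave symbols, coordinates and exon lengths, and the rest held 0.574% of counts. Even numbers made up 71.8% of values from 1 to 10 and 51.7% of values from 1000 to 10000, so counting error is understated if mates were counted separately. Listed genes with exons overlapping a gene on the other strand were *Cd9*, *Cd81*, *Cd37*, *Tspan4* and *Cd151* (13 to 292 bases), and, of the further tetraspanins, *Tspan32*, *Tspan31*, *Tspan2*, *Tspan12* and *Tspan8* (4 to 641 bases).

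Genes were kept by filterByExpr and scaled by TMM (factors 0.873 to 1.17). Counts were tested with edgeR 4.0.16 (R 4.3.3), quasi-likelihood, with 1 mean per group over all 24 libraries, no covariate, and Benjamini-Hochberg adjustment over all genes tested, with calls at an adjusted p under 0.05. Fold changes are log2. Correlations used log2 CPM with a prior count of 2. Replicate pairs all differed beyond counting noise (chi-square per gene 14.8 to 394). The procedure was tested on simulated data. The 10 genes, the gene lists, the doubted libraries and the accession-order sets were chosen with earlier results of these data known. The rule for names took the 10 genes and *Kdm6a*, each further tetraspanin that passed in a sex, up to 5 that passed from each other list, up to 5 per sex of the X-linked window, and the 5 genes most like *Tspan7* by each correlation; marker genes, *Tspan6* and library checks were named beside it. Alternatives were DESeq2 1.42.0, RLE size factors, other filters, the compared groups alone, limma 3.58.1 voom with quality weights, title number as a random effect, a term for the accession-order sets or either set alone, the 4 doubted libraries left out, 2 marker covariates and each library left out in turn.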

Additional observations from a re-analysis of the deposited data

Results flagged for a closer look

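The fall of *Tspan7* in cKO differed between the sexes by -0.99 on the log2 scale (female minus male effect, adjusted p = 0.00033, edgeR's quasi-likelihood test), with all 6 libraries of each cKO group below those of its wildtype. That difference is made from the contrasts that chose *Tspan7*, so its p is not independent of the choice. *Rab27a* showed a like difference of -1.03 (adjusted p = 0.015). The *Rab27a* difference did not pass without the 4 doubted libraries, or in either set of replicates alone (adjusted p = 0.11 and 0.49).

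Single libraries lay far from the rest of their group for *Upk1b* and *Cfp*. *Upk1b* stood at 4.43 CPM in F WT replicate 2, against 0.481 to 1.85 CPM in the other 5. *Cfp* stood at 1.62 CPM in F cKO replicate 4, against 0.197 to 0.639 CPM in the others, and at 7.03 CPM in M WT replicate 3, against 0.537 to 2.55 CPM. In all, 25 genes in 4 groups gave 100 such checks, of which chance marks about 1 in 20. Their sources were not tested.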

How the results depend on the processing

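Across 37 alternatives the change of *Tspan7* kept its sign in both sexes, from -2.05 to -1.77 in females (-1.77 in replicates 4 to 6 alone) and from -1.0 to -0.85 in males, where it did not pass in either set of replicates alone (0 of the 10 genes called in each). Its interaction with sex was -1.05 and -0.92 in those sets (adjusted p = 0.071 and 0.22, 0 of the 10 called), with 3 libraries a group, and passed in the other 34 settings. All settings refit the libraries whose contrasts chose *Tspan7*, so these calls are a description. The wildtype sex difference changed sign within its error: 0.01 with voom quality weights and without the 4 doubted libraries, 0.02 in replicates 1 to 3 alone, and -0.09 to 0.02 with each library left out in turn. With title number as a random effect (consensus correlation 0.216) only 1 of the 10 was called in females.

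Among further tetraspanins, 1 (*Tspan5*) was called in males with voom quality weights and with the neuron, astrocyte and oligodendrocyte covariate. In cKO between the sexes, 2 (*Tspan32* and *Tspan5*) were called with DESeq2, voom quality weights, title number, the term for replicates 1 to 3 against 4 to 6 and both marker covariates, and 0 in either set alone. For the interaction 1 (*Tspan32*) was called with DESeq2, title number and the term for the sets, and 0 to 1 with each library left out. Male changes near 0 reversed: *Clec7a* to 0.06 and *Cd44* to 0.02 in replicates 1 to 3 alone, *Clec7a* -0.12 to 0.04 with each library left out, and *Maob* to 0.52 in replicates 4 to 6 alone, 0.02 without the 4 libraries, and -0.22 to 0.10 with each left out. The causes were not tested. Calls over all genes ran from 458 to 1842 in females (1279 as reported), 0 to 90 in males (31), 2 to 8 and 75 to 609 between the sexes in wildtype and cKO (6 and 328), and 4 to 142 for the interaction (68). No paired analysis of the genotypes was possible because replicate numbers were given in accession order and no title number is shared between genotypes. Some title numbers are shared between the sexes of 1 genotype. With that number as a random effect the *Tspan7* difference in cKO was -1.02 and its interaction -0.99. Both were called, but in the same libraries whose contrasts chose *Tspan7*, so the calls are a description. *Kdm6a*, at 0.648 to 6.09 CPM, and *Upk1b* are limited by depth.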
